A study of Mus musculus with 12 samples.

Results

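The interval table of the study counts reads over short stretches of the mouse genome, and 6104 of its 205977 intervals (2.96%) carry the repeat family ERVL-MaLR alone and no 3′ untranslated region (UTR) window. These are the intervals described here. A further 413 intervals of the family lie in a 3′ UTR window and serve for comparison. In 6058 of the 6104, end minus start is 25, the longest spans 87, and 3135 lie on the plus and 2969 on the minus strand. The samples come from dissociated lumbar dorsal root ganglia (DRG), the clusters of sensory neuron cell bodies beside the spinal cord, of mice carrying Advillin-Cre and the RiboTag allele. With RiboTag, ribosomes of Cre-positive cells carry Rpl22 with a hemagglutinin (HA) tag, here in cells that express Advillin, mainly sensory neurons. One sciatic nerve was crushed, and injured and naive L4-L6 ganglia were taken at 3 days, so all groups share both alleles and both injured and naive ganglia came from each animal. The 4 groups of 3 libraries are naive immunoprecipitate (IP, RNA bound to tagged ribosomes), injured IP, naive input (RNA before the IP) and injured input. The design text names 4 mice, but not which mouse a replicate number stands for, so p-values reflect only how far these libraries spread, part of which may be technical.

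ERVL-MaLR elements are the mammalian apparent long terminal repeat (LTR) retrotransposons, named MT and ORR1 in mouse. They are old relatives of endogenous retroviruses of the ERVL class, encode no retroviral proteins of their own and lie scattered in large numbers in and between genes. An LTR carries a promoter and a polyadenylation signal (AATAAA or the variant ATTAAA), and MT repeats are known as promoters of chimeric transcripts in mouse oocytes. Copies inside or behind a gene are also transcribed passively as part of that gene's RNA, and chromatin silencing by zinc finger proteins with Trim28 and Setdb1 is the best known restraint on retroviral repeats.

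Sequence could be read for 412 of the 6104 intervals, those wholly inside an annotated exon of GENCODE M21 (GRCm38), on the interval's own strand. Of these, 145 (35.19%) held AATAAA, 67 (16.26%) held ATTAAA, and 212 (51.46%) held either. The share with either motif was 37.88% over 44003 intervals of the whole table with sequence and 22.83% over 7077 outside 3′ UTR windows, and on the opposite strand of the ERVL-MaLR intervals it was 1.214%. In other retroviral families outside 3′ UTR windows it was 56.72% over 134 ERV1, 54.65% over 86 ERVL and 34.21% over 342 ERVK intervals. A second shared string, AAGCCA, was picked after the sequences had been seen and stood in 70 (16.99%) of the 412 against 1.052% of all intervals with sequence and 10.47% of the ERVL intervals. On the opposite strand it stood in 0.4854% of them, and these matches are descriptions, not sites. The next sequences were picked as examples that hold both AAGCCA and a signal, and how often both stand together was not counted. Some intervals with more counts do not hold both, such as those in exons of 2210408F21Rik (928 counts) and Timm17a (519 counts). AATAAA or ATTAAA is in capitals. Sequences are written 5′ to 3′ with positions as deposited, read with the start counted from 0 since this is not stated.
Antisense to an exon of Wdfy2, chr14:62960201-62960226, minus strand: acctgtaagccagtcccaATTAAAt
Exon of Cr1l, chr1:195098721-195098746, minus strand: gtaagccaaccccaATTAAAtgctt
Exon of Zfp560, chr9:20352590-20352615, minus strand: tatttgtaagccagAATAAAtcctt
Exon of Uxs1, chr1:43746977-43747002, minus strand: tgtaagccagcccctATTAAAtgtt

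The intervals whose own differences are described later are shown where a sequence could be read. The first of them holds AATAAA in capitals and the others hold neither signal.
Exon of 2900052N01Rik, chr9:46920605-46920630, plus strand: atacaagtcacaagatgaAATAAAt
Exon of 2900052N01Rik, chr9:46920725-46920750, plus strand: catgagactaaggtcctggtgatgg
Exon of 2900052N01Rik, chr9:46920981-46921006, plus strand: gagctggcaccatgcttgggctttc
Antisense to Gm5624, chr14:44599681-44599706, plus strand: aattttaagaatttgcaaggactct
Exon of Gm567, chr3:137300663-137300688, plus strand: tctctccctggaactataaaccaaa
Exon of Gm9947, chr1:14776670-14776695, plus strand: atgaacagaccataaagtaaaacct
Exon of Cr1l, chr1:195097394-195097419, minus strand: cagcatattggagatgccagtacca
Exon of 2010001A14Rik, chr11:57795688-57795713, minus strand: ggaggacatcctcctctgggctggg

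The gene table gave 29436945 to 41990355 counts per library, and levels are gene-table counts per 1000000 (CPM), adjusted by the composition factor of the gene table. The IP held neuronal RNA with less RNA of other cells: Avil, an actin regulator whose gene directs Cre expression, lay above input in the IP by 0.45 log2 in naive and 0.51 in injured ganglia, and each of 4 Schwann cell, 4 satellite glia, 4 macrophage and 5 nuclear RNA markers was lower in IP in both states. Their smallest difference was that of Glul, a satellite glia enzyme, at -0.82 in naive and -0.31 in injured ganglia. The injury markers Atf3, Sprr1a, Gal, Npy and Csf1 rose in IP and in input. Both input libraries numbered 3 stood apart from the other input libraries in the ERVL-MaLR levels, and the main differences between IP and input are also given without them. In bulk RNA, fewer cells of a type and less RNA per cell cannot be told apart.

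Most of the intervals were silent or nearly so. No count was found in any library in 2599 (42.58%), against 41.56% of the whole table, and 2493 had 1 to 9 counts over all 12 libraries. The 107843 counts of the family were held by few intervals: 150 (2.457%) with at least 120 counts took 68.44% of them, and the 10 most counted took 17.98%. In a single library 1080 to 1434 intervals (17.69% to 23.49%) had a count.

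Levels differed by position relative to genes. Intervals up to 5000 bases beyond the end of a gene, on its strand, were 508 (8.322%) of the family but held 39.89% of its counts, and those in exons of the same strand were 366 (5.996%) with 14.05%. Same-strand introns held 1450 intervals (23.75%) and 20.51% of the counts, intervals antisense to a gene 1074 (17.6%) and 10.76%, and the 2706 others (44.33%) 14.79%. Among all intervals outside 3′ UTR windows, 3.971% were downstream of a gene and 3.296% in a same-strand exon. Of the downstream counts, 66.68% lay in 62 intervals on distal chromosome 2, described next, and the 446 other downstream intervals held 13.29% of the family's counts.

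**Figure D1:**
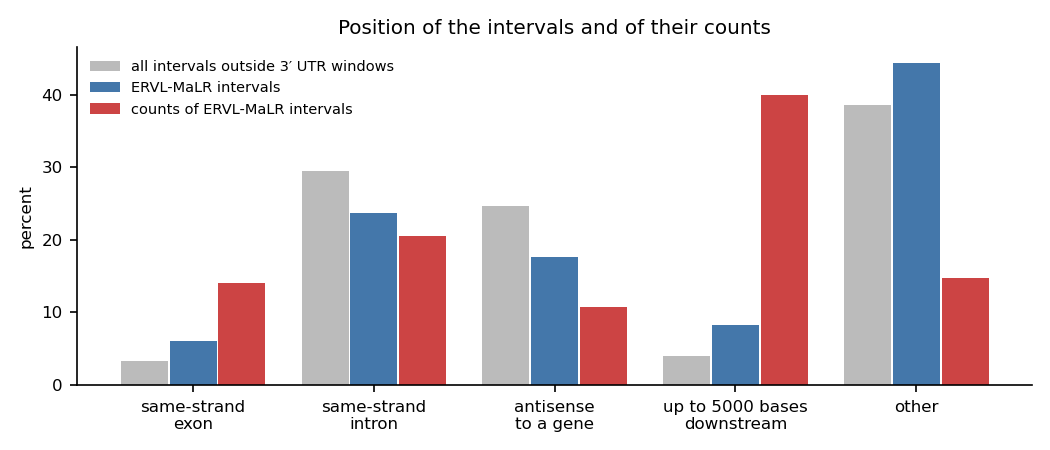
Percent of intervals in each position class for all intervals outside 3′ UTR windows (grey) and for the 6104 ERVL-MaLR intervals (blue), and percent of the ERVL-MaLR counts (red). Intervals downstream of a gene are 8.322% of the family and hold 39.89% of its counts. The 62 of them on distal chromosome 2 hold 26.6% of all counts of the family.

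Of the 10 most counted intervals, 9 lay in a run of zinc finger genes and related loci at the end of chromosome 2, and the first of all lay behind Mrgprd on chromosome 7. Between positions 174910648 and 178055789 (GRCm38), 119 ERVL-MaLR intervals (1.95%) held 43046 counts, 39.92% of the family's total. The bounds were set after the counts had been seen. Of 69 intervals there with at least 30 counts, 14 had the same count as another in every library. Elsewhere this held for 14 of 348, a smaller share. The sources used here do not say how a read that matches several copies was counted. Intervals 3378 bases beyond Gm14435 and 3803 bases beyond Gm14440 both had 1571 counts, and those 4241 bases beyond Zfp967 and 3977 bases beyond Zfp968 both had 1570.

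Sequence shows how alike such copies are. The 2 pairs printed next lie in exons of 2210418O10Rik, on the plus strand, and Gm14296, on the minus strand, both in the same run. The first pair shares a run of 19 bases and had 197 and 184 counts, and the second shares 24 bases and had 191 and 156 counts. The intervals of a pair are offset from each other, and the shared run spans the whole of their overlap. ATTAAA stands in the Gm14296 interval of the first pair, in capitals, and in neither interval of the second. In the first pair the 2210418O10Rik interval ends just before the last base of that motif, so its absence there does not show a difference between the copies.
First copy in 2210418O10Rik, chr2:176238682-176238707: gtgtggaaagtgtgagctggattaa
First copy in Gm14296, chr2:176915664-176915689: aaagtgtgagctggATTAAActctt
Second copy in 2210418O10Rik, chr2:176238936-176238961: ggcctcacttttgaaatttcacagg
Second copy in Gm14296, chr2:176915415-176915440: gcctcacttttgaaatttcacagga

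The highest of these intervals lay in an intron of Zfp973, at chr2:176684979-176685004 (plus strand, 2088 counts). Its level was 7.04, 6.50 and 6.22 CPM in naive IP, 5.88, 5.96 and 6.04 in injured IP, 4.72, 5.13 and 1.96 in naive input, and 3.72, 4.42 and 2.04 in injured input. Every IP library lay above every input library of its state, and both input libraries numbered 3 were lowest. The IP difference was 0.74 log2 (standard error, SE, 0.297) in naive and 0.81 (SE 0.299) in injured ganglia and passed the threshold in neither, with adjusted p = 0.136 and 0.0936. Without both input libraries numbered 3 the differences were 0.42 and 0.55, and the injured one passed (edgeR adjusted p = 0.0547 and 0.00955).
In the gene table, the entry matched to Zfp973 by a RefSeq synonym, Gm14306, is listed at 0 in each of the 12 libraries, as are those of Zfp966, Zfp967 and Gm14288. Of 41 genes at these intervals, 12 are in the gene table by symbol and 5 were tested, with 0 called in any of the 5 comparisons. Of all 15748 genes tested, 18.7% and 16.0% were called for crush in IP and input. For IP against input 41.1% and 45.9% were called in naive and injured ganglia, and 0.0635% for the interaction. With only 5 genes, 0 calls say little. Among the genes at the intervals of this run named in the text, only Zfp971, in the gene table as Etohi1, had a tested gene level. Its gene-table level was 44.77 to 47.87 CPM in naive IP, 30.31 to 34.07 in injured IP, 34.31, 38.40 and 18.11 in naive input and 27.21, 25.25 and 10.29 in injured input. The gene too was lowest in the input libraries numbered 3. For crush in IP the gene differed by -0.53 log2 (SE 0.306), which was not called. The interval 4127 bases beyond Zfp971 differed by 0.09 log2 (SE 0.304), with 3.69 to 4.19 CPM in naive and 3.79 to 4.83 in injured IP. It was not called either, and whether gene and interval differ in their change was not tested.

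Summed over all 6104 intervals, the level was 308.3, 282.6 and 294.8 CPM in naive IP (mean 295.2 ± 12.9, SD, n = 3) and 266.8, 278.0 and 268.2 in injured IP (271.0 ± 6.08). In naive input it was 261.9, 284.4 and 197.6 CPM (247.9 ± 45.1) and in injured input 230.3, 271.5 and 166.1 (222.6 ± 53.1). The injured IP libraries all lay below the naive ones, by 0.12 on the log2 scale between group means, while the other pairs of groups overlapped. A sum over intervals is given with no test.
For the chromosome 2 intervals the sum was 133.3, 123.4 and 131.6 CPM in naive IP against 99.7, 110.8 and 55.5 in naive input, and 118.2, 121.6 and 112.0 in injured IP against 81.4, 105.3 and 39.8 in injured input. These groups did not overlap, and IP lay higher by 0.61 and 0.75 log2. Without input naive 3 and input injured 3 the differences were 0.30 and 0.34. The sum of the other 5985 intervals was 159.1 to 175.0 CPM in naive IP, 142.1 to 173.6 in naive input, 148.7 to 156.4 in injured IP and 126.3 to 166.2 in injured input, and the log2 differences of 0.06 and 0.07 between IP and input went with overlapping groups. Without both input libraries numbered 3 these were -0.02 and -0.03, and the differences over all 6104 intervals, 0.27 and 0.31, were 0.11 and 0.12.

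**Figure D2:**
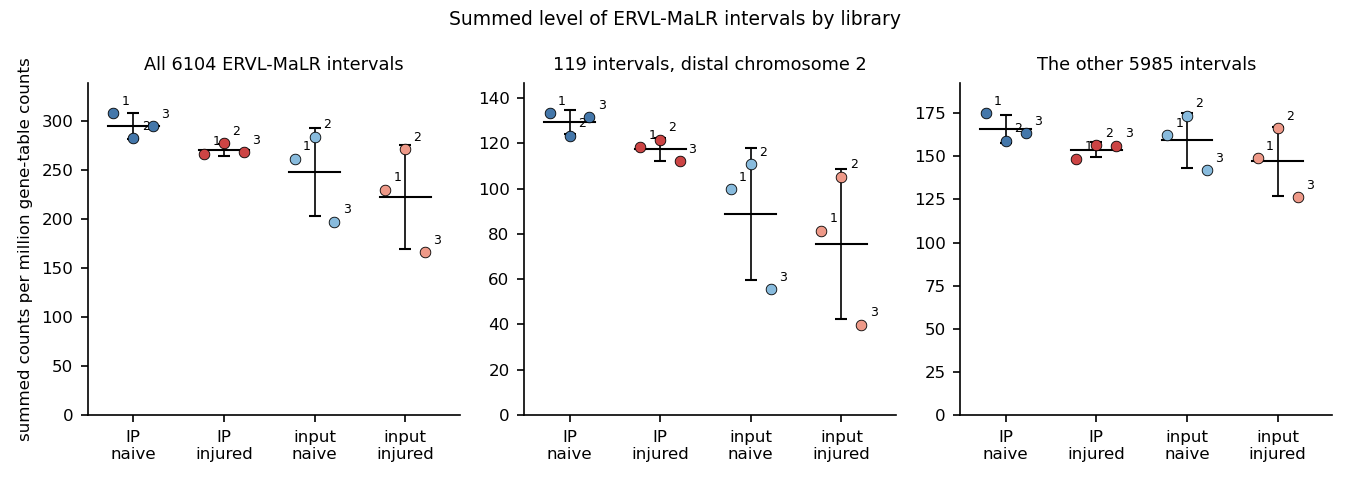
Summed level in CPM (vertical axes from 0) in each of 12 libraries, for all 6104 ERVL-MaLR intervals, the 119 on distal chromosome 2 and the other 5985. Points are libraries with their replicate number, bars the mean ± SD of 3, and the input libraries numbered 3 are the lowest in each panel.

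For tests, 191 intervals (3.13%) had counts enough, with at least 67 over the 12 libraries, and they held 72.24% of the family's counts. Of the 191, 59 lay on distal chromosome 2. The 5913 not tested had at most 108 counts each and 29939 in all. Passing was decided by level, so counts over the 191 do not speak for the whole family. Calls are intervals with an adjusted p under 0.05 over all 23162 intervals tested.

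Few of the 191 tested intervals were called for nerve crush, in a test that recovered 30% of simulated 2-fold changes in IP. In IP, 1 of 191 rose and 0 fell, while 2.39% of all intervals tested were called (2.01% higher and 0.38% lower). In input, 1 rose and 2 fell, while 3.42% of all were called (1.89% higher and 1.53% lower). The median change was -0.17 log2 in IP and -0.21 in input, against -0.02 and -0.13 over all intervals tested. Of the 191, 61 lay above 0 in IP and 59 in input. Their sum was 200.8 to 208.3 CPM in injured and 218.8 to 236.3 in naive IP, without overlap (-0.16 log2). In input the sums overlapped (-0.27 log2). With the replicate number as a block within a fraction, an alternative added after the data were seen, the calls numbered 3 in IP (1 higher, 2 lower) and 10 in input (1 higher, 9 lower), which is 1.57% and 5.24% of the 191. The same fit called 5.3% and 7.62% of all intervals tested. The IP count was 2 without IP injured 1, input naive 3 or input injured 1 and 3 without input injured 3. The input count was 1 without input naive 1, input naive 2 or input injured 3, 5 without input naive 3 and 11 without input injured 2. Summed macrophage markers, which followed the crush too, lay at 4.36 to 11.96 CPM in naive IP, 11.7 to 35.1 in injured IP, 55.2 to 69.3 in naive input and 120.1 to 159.6 in injured input, and their part in these results was not tested.

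The interval that rose lay 2505 bases beyond the end of Mettl7a3, a gene of the methyltransferase-like 7A family, at chr15:100342880-100342905 (plus strand, 826 counts). It had 1.12, 1.21 and 0.966 CPM in naive IP and 3.23, 3.51 and 3.31 in injured IP, and 0.859, 0.978 and 0.705 in naive input and 2.67, 3.04 and 1.51 in injured input. All injured libraries lay above all naive ones in both fractions. The rise was 1.60 log2 (SE 0.244, adjusted p = 0.000267) in IP and 1.51 (SE 0.259, adjusted p = 0.00133) in input, and both calls held in each of 20 alternatives, with adjusted p up to 0.0060 and 0.0339. The gene itself rose by 1.28 log2 in IP (47.85 ± 2.29 to 116.0 ± 3.58 CPM, n = 3, edgeR adjusted p = 4e-07) and by 1.34 in input.

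The most counted interval of the family lay 2078 bases beyond the end of Mrgprd, the receptor of non-peptidergic nociceptors of the skin, at chr7:145326164-145326189 (plus strand, 4460 counts). It had 15.3, 15.8 and 15.0 CPM in naive IP, 12.2, 9.40 and 9.17 in injured IP, 12.1, 10.96 and 9.35 in naive input, and 8.43, 6.40 and 4.90 in injured input. Injured libraries were lower than naive ones without overlap in both fractions, and IP was higher than input without overlap in both states. It fell by 0.71 log2 in input (SE 0.167, adjusted p = 0.0177). In IP the difference was -0.58 log2 (SE 0.162, adjusted p = 0.0626), and with the replicate block it passed at -0.59 (adjusted p = 0.000419). The fall in input was not called without input naive 1, input naive 2, input injured 2 or input injured 3 (adjusted p 0.0598 to 0.107), within a range of 5.48e-05 to 0.13 over all 20 alternatives. Mrgprd itself fell by 0.63 log2 in IP (256.6 ± 17.5 to 165.6 ± 30.1 CPM, n = 3, edgeR adjusted p = 0.00169) and by 0.74 in input (edgeR adjusted p = 0.000755).

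The other interval that fell in input was antisense to Gm5624, at chr14:44599681-44599706 (plus strand, 152 counts). It had 0.429, 0.533 and 0.337 CPM in naive input and 0.0900, 0.180 and 0.0329 in injured input, and 0.623, 0.405 and 0.568 in naive IP and 0.594, 0.329 and 0.251 in injured IP. The input groups did not overlap and the IP groups did. The change in input was -2.04 log2 (SE 0.563, adjusted p = 0.0460), which 15 of 20 alternatives did not call, among them 9 with 1 library left out: any naive IP library, IP injured 2 or 3, input naive 1 or 2, and input injured 1 or 3 (adjusted p 0.0531 to 0.166; 0.0164 to 0.170 over all alternatives).

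**Figure D3:**
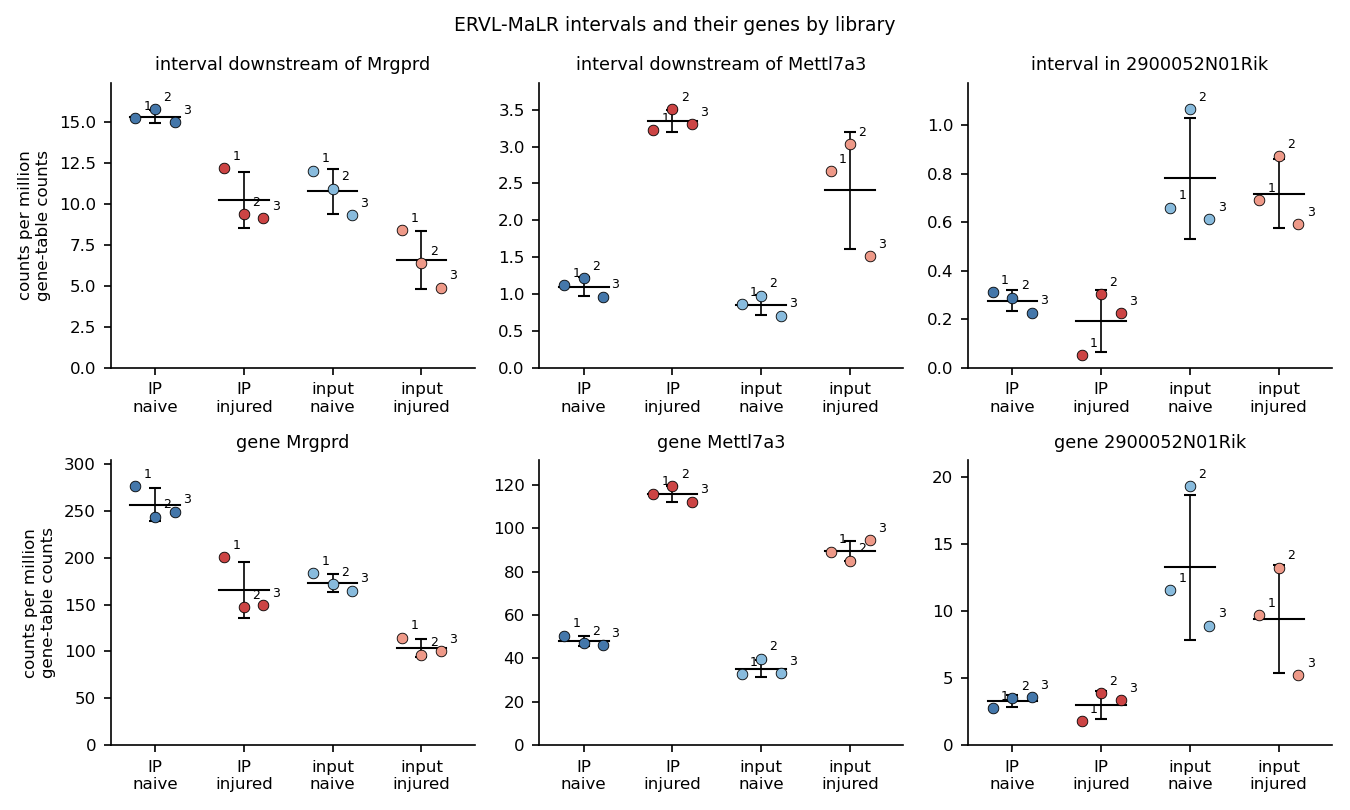
Levels in CPM (vertical axes from 0) in 12 libraries for 3 ERVL-MaLR intervals (top) and the genes they lie behind or in (bottom), with points for libraries, their replicate numbers, and the mean ± SD of 3. The Mettl7a3 interval and gene are higher after crush, the Mrgprd interval and gene lower after crush and higher in IP, and the 2900052N01Rik interval and gene lower in IP.

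The sums of the tested and the untested intervals of the family lay to opposite sides in IP against input. High levels in 1 group alone could pass an interval. The split thus used the values compared here, and the contrast is only a description. The sum of the 191 tested was higher in IP by 0.45 log2 in naive and 0.56 in injured ganglia, without overlap. The sum of the 5913 not tested stood at -0.22 and -0.25, with overlapping groups. Same-strand intron intervals outside distal chromosome 2, 1438 in all, summed to -0.32 and -0.36, without overlap. The 18 of these that were tested went the other way, with medians of 0.16 and 0.25 and with 12 and 11 above 0. Without both input libraries numbered 3 the sum of the 191 tested was higher in IP by 0.26 and 0.31. The sum of those not tested then stood at -0.31 and -0.35, and that of the intron intervals at -0.38 and -0.47.
Among the 191 tested, the median difference was 0.46 log2 in naive and 0.49 in injured ganglia, against -0.05 and 0.10 over all intervals tested, and 146 and 152 of 191 lay above 0. Outside distal chromosome 2 the medians were 0.28 and 0.40 over 132 intervals. Without both input libraries numbered 3 the medians were 0.29 and 0.30 over the 191, 0.33 and 0.25 over the 59 on distal chromosome 2, and -0.11 and 0.03 over all intervals tested. For comparison, the medians were -0.42 and -0.38 over the 2864 intervals tested outside 3′ UTR windows, 0.01 and 0.12 for 295 ERVK intervals, -0.87 and -0.34 for 166 ERV1 intervals, 0.24 and 0.35 for 22 ERVL intervals, and 0.19 and 0.38 for 155 ERVL-MaLR intervals in 3′ UTR windows, and none of these differences between families was tested. With library size alone as the scale, the median of all intervals moved from -0.05 to -0.15 in naive and from 0.10 to -0.05 in injured ganglia.
In naive ganglia 3 of 191 were called higher and 3 lower in IP, while 12.5% of all intervals tested were called (2.29% higher and 10.2% lower). In injured ganglia 15 were higher and 2 lower, while 14.5% of all were called (4.79% higher and 9.69% lower). Of the 15, 9 lay on distal chromosome 2, beside Zfp965, Zfp966, Zfp969, Gm14288, Gm14419, Gm1980 and Gm2004 or in introns of Zfp973, with differences of 0.78 to 1.66 log2. These 9 may not be separate signals. The Zfp965 interval and the Zfp973 interval at start 176686361 had the same count in every library (906 in all). Those beside Zfp966, Zfp969 and Gm14288 had 1333, 1335 and 1339 counts with nearly equal values by library, and those beside Gm14419 and Gm2004 had 200 and 184. Over both states and both crush comparisons, 22 of 27 calls were lost on leaving out at least 1 library and 5 held in each alternative tried for them. With library size alone, the calls were 2 higher and 4 lower in naive and 4 higher and 2 lower in injured ganglia.
The naive count was 1 without IP naive 1, 2 without IP naive 3, 17 without input injured 3 and 11 without both input libraries numbered 3. The injured count was 2 without IP injured 1, 5 without IP injured 2, 9 without IP injured 3, 10 without IP naive 3 or input injured 1, 6 without input injured 3, 26 without input naive 3 and 10 without both input libraries numbered 3. Summed Schwann cell markers lay at 252.3 to 519.8 CPM in IP and 2662 to 3427 in input, and summed nuclear RNA markers at 574.8 to 919.5 and 2621 to 3686, with the lowest nuclear sums of each input group in the libraries numbered 3. The part of these differences in the results was not tested.

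**Figure D4:**
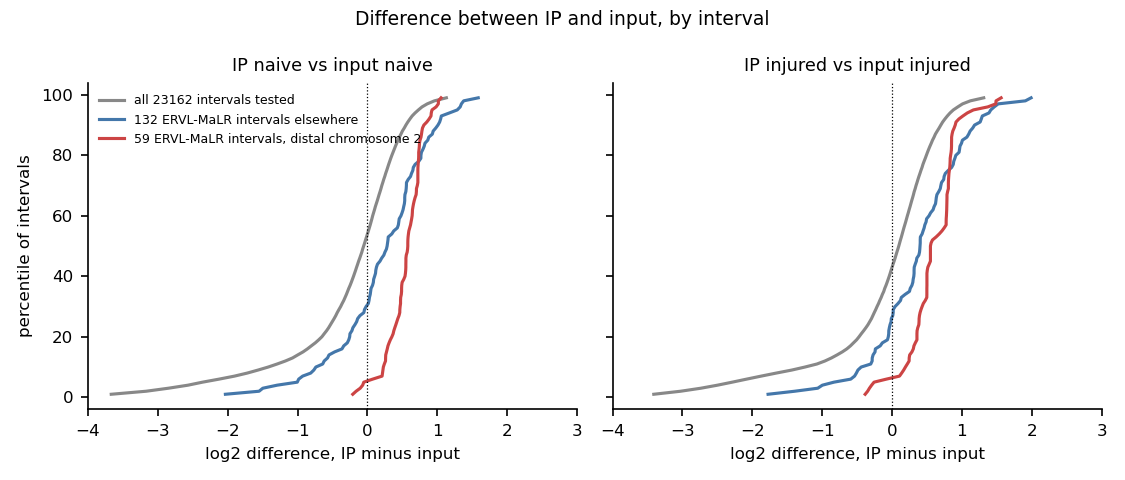
Percentiles of the log2 difference of IP minus input (horizontal axis) over all 23162 intervals tested (grey), 132 ERVL-MaLR intervals outside distal chromosome 2 (blue) and 59 on distal chromosome 2 (red), in naive and injured ganglia. The medians in naive ganglia are -0.05, 0.28 and 0.58.

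The called intervals lower in IP lay in noncoding transcripts. A set of 3 lay in an exon of 2900052N01Rik close to each other. The first, at chr9:46920605-46920630 (197 counts), had 0.311, 0.289 and 0.227 CPM in naive IP against 0.660, 1.07 and 0.613 in naive input, and 0.0516, 0.303 and 0.225 in injured IP against 0.690, 0.872 and 0.592 in injured input. IP and input did not overlap in either state. The difference was -1.49 log2 (SE 0.444, adjusted p = 0.0285) in naive and -1.87 (SE 0.459, adjusted p = 0.00738) in injured ganglia. The naive call was lost without any 1 naive IP library or input naive 2 (adjusted p 0.0664 to 0.138; 0.0148 to 0.138 over all alternatives), and the injured call held in each of 19 alternatives. Its neighbours were at -2.38 in naive (start 46920981, 90 counts) and -1.97 in injured ganglia (start 46920725, 119 counts). The first of these calls was lost without IP naive 1, IP naive 3, input naive 1 or input naive 2 (adjusted p 0.0575 to 0.227; 0.00722 to 0.227 over all alternatives). The other was lost without any 1 injured IP library, input injured 1 or input injured 2 (adjusted p 0.0554 to 0.200; 0.00868 to 0.200 over all alternatives). The gene was lower in IP by 2.01 log2 in naive (edgeR adjusted p = 0.00101) and by 1.65 in injured ganglia (edgeR adjusted p = 0.00334).
The other locus, in an exon of the transcript 2010001A14Rik at chr11:57795688-57795713 (112 counts), had 0.0934, 0.0289 and 0.114 CPM in naive IP against 0.363, 0.504 and 0.276 in naive input, without overlap. The difference was -2.23 log2 (SE 0.661, adjusted p = 0.0282), lost without any 1 naive IP library, input naive 1 or input naive 2 (adjusted p 0.0560 to 0.108; 0.0184 to 0.108 over all alternatives). In injured ganglia the groups overlapped, at -0.49 log2.

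Of the intervals higher in IP outside distal chromosome 2, that in an exon of the long noncoding RNA Gm567 (246 counts) had 0.903, 1.07 and 1.14 CPM in naive IP against 0.297, 0.533 and 0.368 in naive input, without overlap. The difference was 1.36 log2 (SE 0.334, adjusted p = 0.00839) and held in each of 19 alternatives. In injured ganglia it was 0.594, 0.581 and 0.601 against 0.360, 0.271 and 0.329 CPM, also without overlap, at 0.88 log2 (adjusted p = 0.108).
The interval in an exon of the antisense RNA Gm9947 (188 counts) had 0.697, 0.455 and 0.626 CPM in injured IP against 0.0900, 0.240 and 0.0986 in injured input. The groups did not overlap, and the difference of 2.01 log2 (SE 0.461, adjusted p = 0.00445) held in each of 19 alternatives. In naive ganglia the difference was 1.16 log2 (adjusted p = 0.0673), again without overlap.
An interval outside any gene and its downstream 5000 bases, at chr3:101476490-101476515 (plus strand, 529 counts), had 2.52, 1.33 and 1.62 CPM in naive IP against 0.760, 0.741 and 1.20 in naive input, and 1.65, 1.54 and 1.38 in injured IP against 0.720, 0.722 and 0.986 in injured input. IP lay above input without overlap in both states, by 1.01 log2 in naive (SE 0.286, adjusted p = 0.0212) and 0.91 in injured ganglia (adjusted p = 0.0359). The naive call was lost without IP naive 1, input naive 1 or input naive 2 (adjusted p 0.0846 to 0.185; 0.00346 to 0.185 over all alternatives), and the injured call without any 1 injured IP library, input injured 1 or input injured 2 (adjusted p 0.0663 to 0.119; 0.0125 to 0.119 over all alternatives).
The Mrgprd interval was higher in IP by 0.51 log2 in naive (adjusted p = 0.0420) and 0.64 in injured ganglia (adjusted p = 0.0113), and the gene by 0.57 and 0.68. The naive call was lost without any 1 of 8 libraries (adjusted p 0.0522 to 0.162) and the injured call without IP injured 1 (adjusted p 0.0959), within ranges of 0.00907 to 0.162 and 0.00130 to 0.0959 over all alternatives. Library size alone called neither (adjusted p = 0.106 and 0.0595).
The largest fitted difference in injured ganglia belonged to the interval 4758 bases beyond Clrn1, a membrane protein of hair cells, at 2.27 log2 (SE 0.687, adjusted p = 0.0278). It had 0.336, 0.278 and 0.175 CPM in injured IP against 0.0300, 0.0902 and 0.0329 in injured input, which did not overlap, and 88 counts in all, the lowest total among the called intervals. It was not called without IP injured 1, IP injured 2, input injured 1 or input injured 3 (adjusted p 0.0587 to 0.0998; 0.0280 to 0.0998 over all alternatives). The exon of Cr1l, a complement regulator, held a called interval at 0.87 log2 (adjusted p = 0.0476) that the gene, at -0.19, did not share. It is named after its values were seen, and 15 of 19 alternatives did not call it, among them 10 with 1 library left out (adjusted p 0.0516 to 0.213; 0.0364 to 0.213 over all alternatives).

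Whether crush changed IP and input differently was tested by the interaction, the change in IP minus the change in input. Of the 191 intervals 0 passed, as did 0.0% of all 23162, with 6 of the 191 (3.141%) and 788 of all (3.402%) at an unadjusted p under 0.05 in edgeR and 0 called by DESeq2. The median was 0.11 log2, against 0.13 over all intervals tested. The Gm5624 interval, called in input and not in IP, had an interaction of 1.60 log2 (SE 0.723, adjusted p = 1).

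Differences of the intervals were set beside those of the genes they lie in or behind. For 68 tested intervals the gene was tested too, and across these the change of the interval and of the gene had a Pearson correlation of 0.65 for crush in IP, 0.57 for crush in input, 0.60 for IP against input in naive and 0.69 in injured ganglia, and 0.25 for the interaction. Without distal chromosome 2, over 60 intervals, the values were 0.69, 0.58, 0.61, 0.70 and 0.26. The points share all 12 libraries, several share a gene, and reads of an exonic interval may also be counted for the gene, so these correlations are a description.
By position, the correlation for IP against input was 0.84 in naive and 0.83 in injured ganglia over 23 intervals in exons, but -0.00 and 0.25 over 20 downstream intervals outside distal chromosome 2. Over 17 same-strand intron intervals outside distal chromosome 2 it was 0.03 and 0.55. For crush the downstream intervals had 0.76 in IP and 0.77 in input, those in exons 0.74 and 0.51, and those in introns 0.66 and 0.03.

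**Figure D5:**
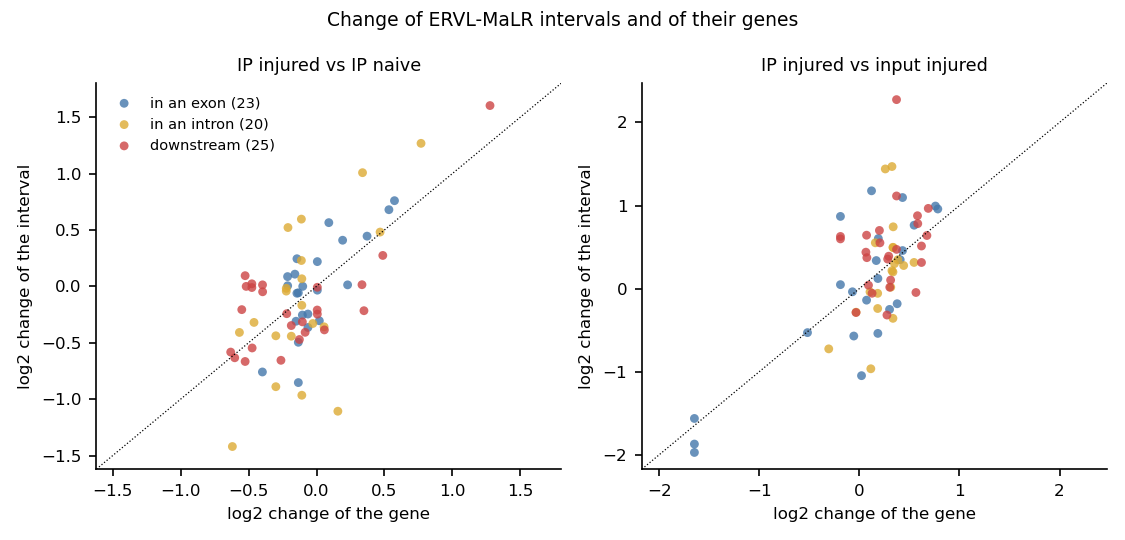
Log2 change of 68 ERVL-MaLR intervals (vertical) against the log2 change of the gene they lie in or behind (horizontal) for crush in IP and for IP against input in injured ganglia, with colours for position and a dotted line of equal change. At left the point highest on both axes is the Mettl7a3 interval (1.60 and 1.28), and at right the 3 lowest points are the 2900052N01Rik intervals (gene at -1.65).

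Genes that silence retroelements were followed as a list of 35, all tested. After crush 4 rose and 0 fell in IP, while 18.7% of all 15748 genes were called (11.5% higher and 7.12% lower). In input 2 rose and 1 fell, while 16.0% were called (7.79% higher and 8.26% lower). In IP these were H3f3b, a gene of histone H3.3, at 0.67 log2 (73.4 ± 5.09 to 116.4 ± 7.35 CPM, n = 3, edgeR adjusted p = 0.000139), Sumo2, the protein modifier, at 0.35, Morc2a, an ATPase of the silencing complex HUSH, at 0.32, and Kdm1a, a histone demethylase, at 0.31. In input H3f3b rose by 0.37, Uhrf1, the cofactor of DNA methylation upkeep, by 0.81 and Hells, a chromatin remodeller, fell by 0.71. With the replicate number as a block over all 12 libraries, 8 rose and 1 fell in IP and 4 rose and 1 fell in input, while 23.3% and 20.1% of all genes were called. The IP count of 4 was 2 without IP naive 3 or IP injured 3, 7 without input naive 3, 8 without input injured 3 and 12 without both input libraries numbered 3, a fit that called 30.8% of all genes. The input count of 3 was 1 without input naive 1 or input naive 2. Trim28 and Setdb1 were called in none of the 5 comparisons.
Against input, 6 of the 35 were higher and 8 lower in IP in naive ganglia, while 41.1% of all genes were called. In injured ganglia 8 were higher and 6 lower, while 45.9% were called (21.4% higher and 24.6% lower). Those higher in both states were Hells, Hdac2, Kdm1a, Mphosph8, Pphln1 and Mettl14. Hdac2 and Kdm1a are subunits of repressor complexes, Mphosph8 and Pphln1 belong to HUSH, and Mettl14 to the m6A writer. The lowest in naive IP were Uhrf1 at -2.96 and Dnmt3b, a DNA methyltransferase, at -2.67. The naive count of 14 was 8 without IP naive 1, 9 without IP naive 2 or input naive 3, and 7 without IP naive 3. The interaction called 0 of the 35, while 0.0635% of all genes were called.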

How the data were processed

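RNA of 12 libraries (4 groups of 3) was sequenced after ribosomal RNA depletion with a stranded kit, per the labels' protocols. Reads were handled with bcl2fastq 2.17, STAR and HTSeq on GRCm38 (mm10), per the submitters' processing notes. The authors deposited raw counts per gene and raw counts per repeat interval. How the intervals were chosen, how reads with several matches were counted and whether starts count from 0 or 1 are not given in the sources used here, and a start counted from 1 would shift each printed sequence by 1 base.

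Counts were tested with edgeR 4.0.16 (R 4.3.3, robust quasi-likelihood F test, filterByExpr, 4 group means, 8 residual degrees of freedom), with gene-table totals and trimmed mean of M-values (TMM) factors as library sizes. Benjamini-Hochberg adjustment ran over 23162 intervals or 15748 genes. Gene rows with date names (27 rows, 0.191% to 0.214% of counts) were left out. Positions and sequences come from GENCODE M21, and 5000 bases beyond a gene end counted as downstream. On simulated data for IP injured against IP naive over 23162 intervals, 30% of 2-fold and 68% of 4-fold changes were recovered.

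The intervals, lists and tests were chosen with earlier results of these data known. Intervals named are the 10 with the highest mean CPM and, per comparison, up to 5 called rises and 5 called falls, loci within 1000 bases counted once. Same-numbered injured and naive libraries deviated together within a fraction over genes (correlation of deviations from the group means 0.277 to 0.51 in IP and 0.395 to 0.742 in input), so the replicate number was a block within a fraction as an alternative. Between fractions the correlation was -0.0357 to 0.264. Other alternatives were library scaling, low-count filters, DESeq2 1.42.0, fits on fewer libraries, and each library left out.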

Additional observations from a re-analysis of the deposited data

How the results depend on the processing

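No called result reversed under the alternatives run. The intervals called for crush in IP (1) were 2 with interval-table TMM, 3 with at least 1 count and 3 with at least 30 counts, 2 with DESeq2 and 6 in only the 6 libraries compared, and leaving out 1 library gave 1 to 3. For crush in input (3) they were 6 with at least 1 count and 1 in only the 6 libraries, and 1 to 11 with 1 library left out. For IP against input in naive ganglia (6) they were 17 with interval-table TMM and 11 with at least 1 count, and 1 to 17 with 1 library left out. In injured ganglia (17) they were 6 with library size alone, 31 with at least 1 count, 5 with DESeq2 and 10 in only the 6 libraries, 8 outside distal chromosome 2, and 2 to 26 with 1 library left out. The silencing genes called for crush in input were 5 with DESeq2, and leaving out 1 library gave 2 to 8 for crush in IP, 1 to 4 in input, and 7 to 17 for IP against input in naive ganglia. The cause of these moves was not tested.

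With the replicate number as a block over all 12 libraries, the intervals called were 2 and 5 for crush in IP and input and 13 and 28 for IP against input in naive and injured ganglia, and the silencing genes called for crush were 9 in IP and 5 in input. With the block within a fraction, 3 and 10 intervals were called for crush. Without both input libraries numbered 3, the calls were 3 for crush in IP, 11 and 10 for IP against input, and 12 silencing genes for crush in IP. The summed IP difference in naive ganglia was 0.0616 log2 outside distal chromosome 2. The alternatives with the block within a fraction, without both input libraries numbered 3 and outside distal chromosome 2 were chosen after seeing the data. Intervals with few counts limit the tests: 5913 of 6104 could not be tested.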
